A study of Mus musculus with 8 samples.

Results

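The miR-344 family is a group of mouse miRNAs made from 13 hairpin genes that lie together on chromosome 7. The 3 mature miRNAs described here are mmu-miR-344-3p, mmu-miR-344d-3p and mmu-miR-344d-3-5p (the species prefix mmu is left out from here on), 3 of 1978 mature miRNAs in the count tables and 3 of 19 that carry the miR-344 name. They were selected by name because the ATF4 library held more of them than the vector library, so their values in that pair are a description and support nothing.

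Small RNA was sequenced in 8 libraries, 1 per condition, so that differences have no check by replicates. Of these, 6 came from C2C12, a line of mouse skeletal myoblasts, and 2 from P19, a line of mouse embryonal carcinoma cells. C2C12 cells that carried either the negative control hairpin (shNC) or one that targets Perk (shPerk) were sampled at day 0, before differentiation was induced, and at day 3 in differentiation medium. The second set is a pair of C2C12 libraries, of cells with the ATF4 vector and of cells with the vector alone, and the third set is a pair of P19 libraries, shNC and shPerk. According to the methods, the C2C12 lines were made by lentiviral infection and puromycin selection, ATF4 was driven by the EF1α promoter, and the ATF4 and vector cells were kept in growth medium. The state of differentiation of the P19 cells is not given in the labels. PERK is the kinase that phosphorylates the translation factor eIF2α during stress of the endoplasmic reticulum, and ATF4 is the transcription factor whose translation then increases. Neither Perk nor Atf4 mRNA is measured by small RNA libraries, so the knockdown and the overexpression were not checked here. Depth in the 4 hairpin libraries lay between 8800977 and 11993448 miRNA reads. The ATF4 and P19 pairs were deposited as RPM, that is reads scaled to the miRNA total of the library, with values under 1 listed at 0.

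A miRNA hairpin is cut into a duplex whose strands are named 5p and 3p after the arm they come from. One strand usually stays on an Argonaute protein, and bases 2 to 8 of it, the seed, pair with target mRNAs. miR-344 miRNAs have been described mainly in embryonic and adult brain. Their hairpins lie beside Ndn, Magel2 and Mkrn3, the imprinted genes of the mouse region that corresponds to the human Prader-Willi region.

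All 19 mature sequences matched the RefSeq table (build GRCm38.p6). The sequences below are those with values that the results turn on, with the seed in capitals, grouped by seed. miR-410-3p is added since it has the seed of miR-344d-3p.
miR-344-3p: uGAUCUAGccaaagccugacugu
miR-344c-3p: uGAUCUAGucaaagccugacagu
miR-344d-3p: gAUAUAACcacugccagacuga
miR-344e-3p: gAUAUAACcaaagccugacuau
miR-410-3p: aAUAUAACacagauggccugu
miR-344b-3p: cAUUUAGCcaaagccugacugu
miR-344d-3-5p: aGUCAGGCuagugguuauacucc
miR-344-3p and miR-344d-3p have different seeds, and without gaps 16 bases are the same in the best alignment of the 23 and 22 bases. miR-344-3p and miR-344c-3p share the seed GAUCUAG and differ at few positions, with 21 of 23 bases the same. miR-344b-3p has 20 bases in common with miR-344-3p when shifted by 1 base. Its seed differs both by this shift and by a U in place of a C. The 5p miRNA miR-344d-3-5p has the seed GUCAGGC, which 5 other 5p miRNAs of the family also carry. The rule by which reads that match several of these sequences were counted is not stated, so counts of the closest pairs, such as miR-344-3p and miR-344c-3p, are uncertain.

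The gene of origin can be told for only 1 of the 3 miRNAs. miR-344-3p is the product of Mir344 (chr7:61877770-61877864) and Mir344-2 (chr7:61940027-61940106), and miR-344d-3p is the product of Mir344d-1 (chr7:61683124-61683192), Mir344d-2 (chr7:61685272-61685351) and Mir344d-3 (chr7:61726249-61726328), all on the minus strand. The 5p arms of the 3 miR-344d hairpins differ, so miR-344d-3-5p comes from Mir344d-3. Its hairpin is shown with both mature arms in capitals.
Mir344d-3: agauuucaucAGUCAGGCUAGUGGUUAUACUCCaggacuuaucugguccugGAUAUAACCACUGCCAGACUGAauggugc
Over the 4 hairpin libraries, the 5p arm of Mir344d-1 had 0 reads and that of Mir344d-2 at most 1 read per library, against 11 to 108 reads for the 5p arm of Mir344d-3. The 13 hairpins span 402 kb (chr7:61683124-62085310), all on the minus strand, and 7 of them lie inside introns of the lincRNA gene A230057D06Rik, including Mir344 and Mir344d-3. Mir344-2 lies in an intron of A330076H08Rik, and Mir344d-1 and Mir344d-2 lie in no other annotated gene. No mature miRNA of another gene is annotated within 500 kb of the cluster.

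**Figure D1:**
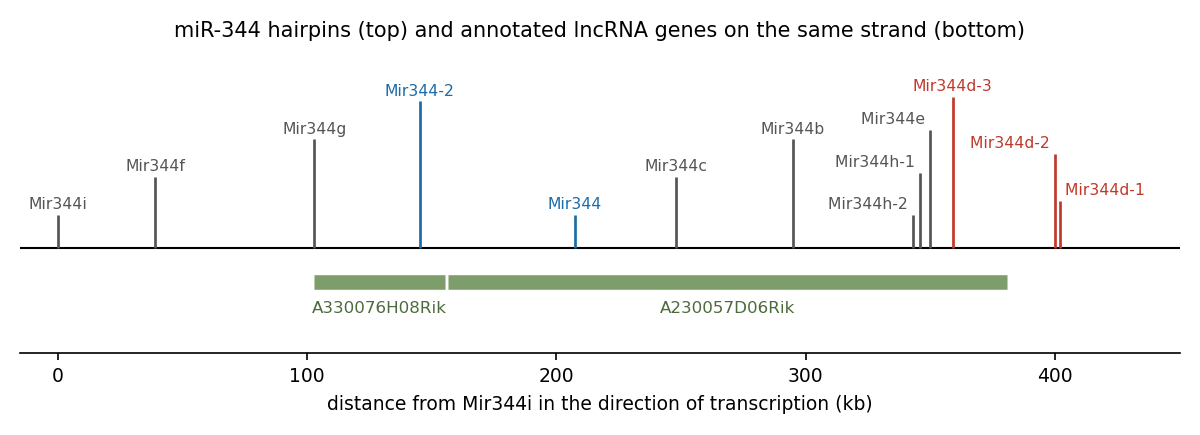
Map of the miR-344 hairpin genes along the horizontal axis in kb from Mir344i, in the direction of transcription (minus strand). Vertical lines mark the 13 hairpins, blue for those that give miR-344-3p and red for those that give miR-344d-3p, and green bars mark the lncRNA genes A330076H08Rik and A230057D06Rik, the second of which spans 7 hairpins.

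In every C2C12 library miR-344d-3p was the most abundant miRNA of the family, and in both P19 libraries it was miR-344-3p. miR-344-3p was counted 280 times in the shNC and 408 times in the shPerk library at day 0, and 838 and 442 times at day 3. These are 24.7, 46.4, 69.9 and 46.9 CPM (counts scaled to the miRNA total of the library). It was listed at 8.88 RPM in the vector library, 148 RPM in the ATF4 library, 908 RPM in P19 shNC cells and 1259 RPM in P19 shPerk cells. Its lowest level was thus in the vector library and its highest in P19 cells. The 2 shPerk libraries of C2C12 were next to each other in this order, and their 95% Poisson intervals overlap (42.0 to 51.1 CPM at day 0 and 42.6 to 51.5 CPM at day 3). This overlap holds for CPM, and not with the scaling of the comparisons below. All intervals here reflect the error of counting and nothing else. The methods name no molecular identifiers, so copies made by PCR may be counted as if each were a molecule.

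For miR-344d-3p the day 0 libraries had 832 reads (shNC) and 3330 reads (shPerk), and those of day 3 had 1736 and 3550. This gave 73.5, 378, 145 and 377 CPM. The vector library held 119.6 RPM, the ATF4 library 563 RPM, P19 shNC cells 149 RPM and P19 shPerk cells 69.1 RPM. Both shPerk libraries of C2C12 lay above every C2C12 control. In CPM they did not differ from each other beyond their intervals (366 to 391 CPM at day 0 and 364 to 389 CPM at day 3). With the scaling of the comparisons below, day 3 was higher by a log2 fold change of 0.44 (0.37 to 0.51). miR-344d-3-5p had 14, 51, 11 and 108 reads in the same order of hairpin libraries (1.24, 5.79, 0.917 and 11.5 CPM). It was listed at 0 in the vector library, at 6.08 RPM in the ATF4 library and at 5.18 and 3.37 RPM in P19 shNC and shPerk cells. For miR-344d-3-5p the control libraries of C2C12 were the 3 lowest of the 8. The shNC values at day 0 and day 3 overlap in their intervals (0.676 to 2.07 and 0.458 to 1.64 CPM). CPM and RPM are both relative to the miRNA reads of a library, but the tables were made separately, so their order across tables is a description. Among all miRNAs above 0, ranked by level, miR-344d-3p was 205th of 1071 in shNC cells and 116th of 945 in shPerk cells at day 0.

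**Figure D2:**
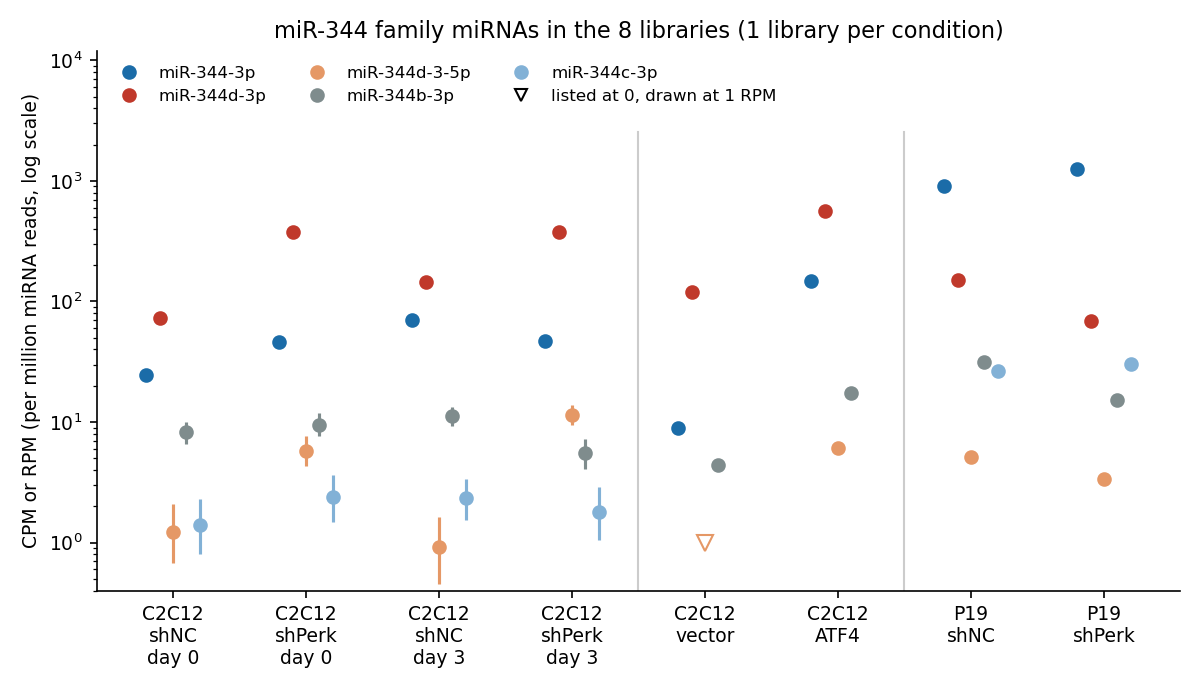
Levels of 5 miR-344 family miRNAs in the 8 libraries, in CPM or RPM on a log axis, 1 library per condition. Points are the values, bars are 95% Poisson intervals of the counted libraries, and the open triangle is a value listed at 0. miR-344d-3p (red) is the highest in the 6 C2C12 libraries and miR-344-3p (blue) is the highest in both P19 libraries.

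Knockdown of Perk was compared with the control hairpin in undifferentiated C2C12 cells first. All 3 miRNAs were higher in the shPerk library. In this comparison, 602 miRNAs had at least 1 CPM in 1 of the libraries, and 34.6% of them were called, 16.4% as higher and 18.1% as lower. A call needs a log2 fold change beyond 1 after TMM scaling and a Benjamini-Hochberg adjusted p under 0.05 in a two-sided exact binomial test of the reads, a test that compares 2 libraries and not 2 conditions. miR-344d-3p was higher by a log2 fold change of 2.52 (95% Clopper-Pearson interval 2.41 to 2.63) and miR-344d-3-5p by 2.37 (1.51 to 3.35). miR-344-3p was higher by 1.06 (0.84 to 1.29), which is at the fold limit: with total-count scaling the value was 0.91 and with upper-quartile scaling 0.83, both below it. miR-344b-3p (93 and 84 reads) and miR-344c-3p (16 and 21 reads) were not called, with log2 fold changes of 0.37 (-0.07 to 0.82) and 0.91 (-0.09 to 1.95). The 5 family miRNAs that passed the filter had a median log2 fold change of 1.06, against -0.03 for all 602.

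Markers of cell types moved in the same pair. The 4 muscle markers miR-1a-3p, miR-133a-3p, miR-133b-3p and miR-206-3p summed to 19165 CPM in shNC and 3839 CPM in shPerk cells at day 0, and to 88480 and 24312 CPM at day 3. The summed level of 4 blood miRNAs was 11.2 CPM in the shNC and 350.3 CPM in the shPerk library. miR-142a-3p had 28 and 1977 of these reads and was the largest of the 4 in shPerk cells, miR-451a was the largest in shNC cells (71 and 80 reads), and miR-223-3p had 0 reads in both. The summed level of 4 neuronal miRNAs was 181 and 2651 CPM, nearly all of it miR-9-5p, while miR-124-3p and miR-137-3p had 0 reads in both. At day 3 the blood sum was 9.67 CPM in shNC and 122 CPM in shPerk cells, and the neuronal sum was 559 and 4069 CPM, with miR-124-3p again at 0 reads. Outside that sum, miR-128-3p (10889 and 2343 CPM) and miR-129-5p (53.9 and 9.55 CPM) were again lower in shPerk cells, and miR-9-3p (28.9 and 151 CPM) higher. The part of these markers in the miR-344 values was not tested. In bulk libraries, a change in the number of cells of one kind and a change in the RNA per cell cannot be told apart.

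At day 3 the 3 miRNAs parted. Of 575 miRNAs tested, 41.9% were called, 20.0% as higher in shPerk cells and 21.9% as lower. miR-344d-3p was higher by a log2 fold change of 1.64 (1.56 to 1.73), and miR-344d-3-5p by 3.89 (3.01 to 4.95), 11 reads against 108. miR-344d-3-5p passed the filter at this day only through the shPerk library, in which it was high. miR-344-3p was not called: with 838 reads for shNC and 442 for shPerk it stood at -0.31 (-0.48 to -0.14). miR-344b-3p stood at -0.75 (-1.24 to -0.28; 134 and 52 reads) and miR-344c-3p at -0.11 (-1.07 to 0.81), and neither was called. The median over the 5 family miRNAs was -0.11, against -0.05 for all tested.

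The difference of the knockdown effect between the days was then computed from the 4 hairpin libraries under 1 TMM scaling, with a Wald interval from the reads. For miR-344-3p the log2 ratio of shPerk to shNC was 1.10 at day 0 and -0.31 at day 3, a difference of -1.41 (-1.69 to -1.14). For miR-344d-3p the difference was -0.91 (-1.05 to -0.78), from 2.56 to 1.64. For miR-344d-3-5p it was 1.49 (0.25 to 2.72) in the other direction. miR-344b-3p, with a difference of -1.16 (-1.79 to -0.54), was on the side of miR-344-3p, and the interval of miR-344c-3p (-2.34 to 0.22) included 0. Differences of this kind were common: of 474 miRNAs with at least 10 reads in all 4 libraries, 297 (62.7%) had an adjusted p under 0.05 in this Wald test with Benjamini-Hochberg adjustment. The intervals of the 3 chosen miRNAs excluded 0 with each of the 4 scalings used.

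During differentiation of control cells, miR-344-3p and miR-344d-3p increased together. Between day 0 and day 3 of shNC cells, 26.0% of 593 miRNAs were called, 15.0% as higher at day 3 and 11.0% as lower. On the log2 scale miR-344-3p rose by 1.86 (1.66 to 2.06) and miR-344d-3p by 1.34 (1.22 to 1.46), the second dropping to 0.98, under the limit, with total-count scaling. miR-344c-3p was called at 1.08 (0.15 to 2.07) from 16 and 28 reads, but lost the call with total-count and upper-quartile scaling and with a prior count of 2 (values 0.72 to 0.99). miR-344b-3p, at 0.80 (0.41 to 1.20), was not called. miR-344d-3-5p went from 14 to 11 reads, and the interval of its log2 fold change of -0.07 (-1.36 to 1.17) holds changes larger than the fold limit on both sides.

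In shPerk cells the same days gave another picture. Of 573 miRNAs, 29.3% were called, 16.8% as higher at day 3 and 12.6% as lower. miR-344-3p (408 and 442 reads) and miR-344d-3p (3330 and 3550 reads) were not called, with log2 fold changes of 0.46 (0.27 to 0.66) and 0.44 (0.37 to 0.51). With total-count scaling miR-344-3p stood at 0.02 and miR-344d-3p at -0.01, so the direction of miR-344d-3p here depends on the scaling. miR-344d-3-5p rose from 51 to 108 reads, by a log2 fold change of 1.43 (0.94 to 1.94), and by 0.98 with total-count scaling, under the limit. miR-344b-3p and miR-344c-3p were not called, at -0.34 (-0.87 to 0.17) and 0.04 (-0.97 to 1.04). These 4 comparisons share libraries pairwise and are not independent of each other.

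**Figure D3:**
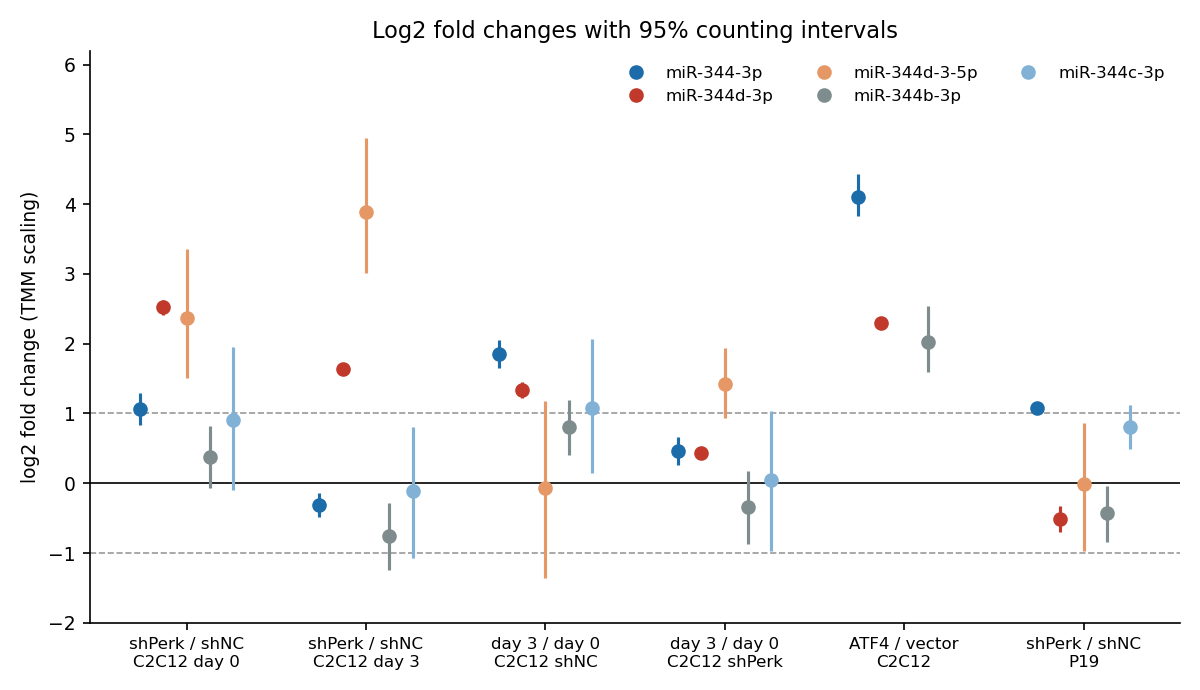
Log2 fold change (TMM scaling) of 5 miR-344 family miRNAs in 6 comparisons. Bars are 95% Clopper-Pearson intervals of the reads (reads estimated from the RPM values for ATF4 and P19), dashed lines mark the fold limit of 1, and miR-344d-3-5p in the ATF4 pair has no point since the vector value is listed at 0. miR-344-3p lies near 1 at day 0 and below 0 at day 3, while miR-344d-3p and miR-344d-3-5p lie above 1 on both days.

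The ATF4 library, on which the choice of the miRNAs rests, held more of all family miRNAs listed in it. Of the 605 miRNAs of this pair, 22.3% were beyond the fold limit, 14.0% as higher and 8.26% as lower, and the fold limit alone made these calls. With 8.88 RPM in the vector and 148 RPM in the ATF4 library, miR-344-3p had the 3rd largest log2 fold change of the 605, 4.11. For miR-344d-3p (119.6 and 563 RPM) it was 2.30, the 12th largest. miR-344d-3-5p was listed at 0 in the vector and at 6.08 RPM in the ATF4 library, so no fold is given. miR-344b-3p, which was not among the 3 chosen, had 4.44 and 17.6 RPM and came 16th, with a log2 fold change of 2.02. miR-344c-3p and the other family names were not listed in this pair. The 4 muscle markers summed to 2467 RPM in the vector and 3790 RPM in the ATF4 library, and the 4 blood markers to 72.8 and 47.8 RPM. Of the 4 neuronal markers only miR-9-5p was listed above 0, at 76.0 RPM in the vector and 236 RPM in the ATF4 library. Of the other miRNAs in the neuronal list, miR-9-3p (3.12 and 11.85 RPM) was higher in the ATF4 library. There miR-128-3p (2927 and 2395 RPM) and miR-129-5p (1140 and 1036 RPM) were lower. The part of these markers in the miR-344 values of this pair was not tested.

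**Figure D4:**
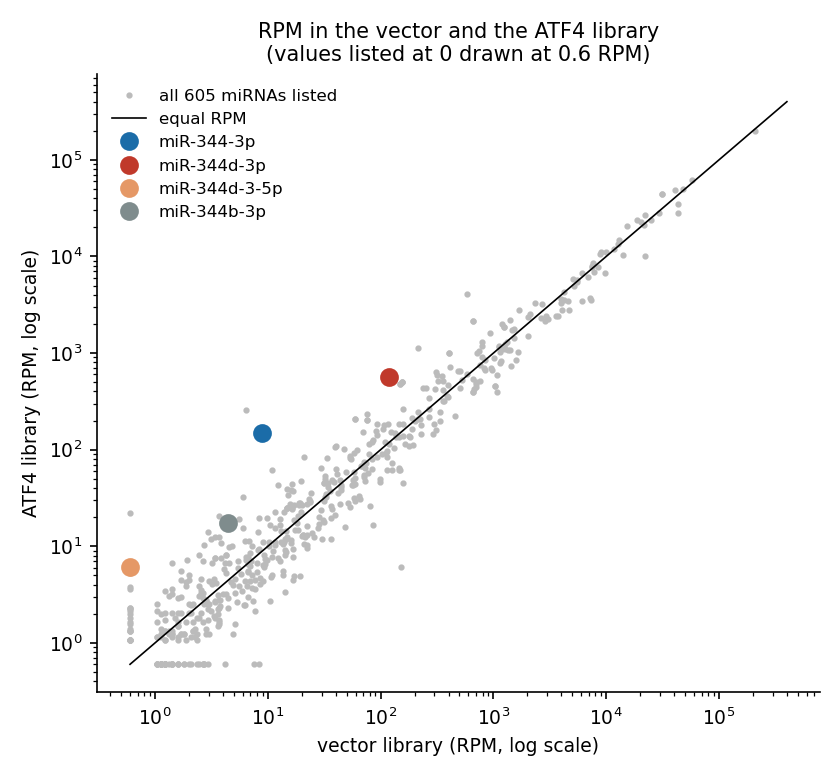
RPM of each of the 605 miRNAs in the vector library (horizontal) and the ATF4 library (vertical), both on log axes, with 1 library each. The line marks equal RPM and values listed at 0 are drawn at 0.6 RPM. The 4 coloured miR-344 family miRNAs all lie above the line, miR-344-3p the farthest of those with a vector value above 0.

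Both the vector and the shNC day 0 library are undifferentiated C2C12 controls without Perk or ATF4 manipulation, and their values were set side by side. They differ in construct as well as in table, and may differ in confluence. According to the paper, the vector and ATF4 cells were below full confluence, and cells to be differentiated reached full confluence before the medium was changed. The confluence of the day 0 cells is not given in the labels. The parts of construct, table and confluence in the differences between the libraries cannot be told apart. The 4 muscle markers summed to 19165 CPM in the shNC day 0 library and 2467 RPM in the vector library. For log2 differences between these libraries, TMM scaling was applied to the CPM and RPM of the miRNAs listed in both. Over 372 miRNAs above 0 in both and with at least 10 CPM or RPM in 1 of them, the median absolute log2 difference between the libraries was 0.62 and the 90th percentile was 1.82. miR-344d-3p was 0.43 higher and miR-344-3p 1.75 lower in the vector library on this log2 scale. The difference of miR-344-3p between the control libraries was thus larger than its log2 fold change by knockdown at day 0, and smaller than that in the ATF4 pair. The vector value enters both this difference and the ATF4 fold change by which miR-344-3p was chosen, so the comparison is a description only.

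In P19 cells the order of the miRNAs was turned. Of 696 miRNAs, 34.6% were beyond the fold limit, 17.1% as higher in shPerk cells and 17.5% as lower, again by the fold limit alone. When the exact binomial test on reads estimated from the RPM values was required as well, 230 instead of 241 were called. miR-344-3p, with 908 RPM in shNC and 1259 RPM in shPerk cells, had a log2 fold change of 1.08 with TMM scaling, but 0.94 with upper-quartile and 0.47 with total-count scaling. For miR-344d-3p (149 and 69.1 RPM) the log2 fold change was -0.51, within the limit with TMM scaling, and -1.11 with total-count scaling. miR-344d-3-5p (5.18 and 3.37 RPM) had a log2 fold change of -0.01 (-0.98 to 0.87 from estimated reads), 0.03 with median-of-ratios scaling. The summed level of 9 pluripotency miRNAs was 178835 RPM in shNC and 413542 RPM in shPerk cells. The largest were miR-302b-3p (76522 and 180818 RPM) and miR-302d-3p (42087 and 129217 RPM). In RPM, miR-295-3p (20160 and 18752) and miR-290a-3p (33.1 and 25.35) were lower in shPerk cells and the rest were higher. The part of the summed level in these differences between scalings was not tested. In the 4 C2C12 hairpin libraries that sum was at most 0.353 CPM, and none of the 9 was listed in the ATF4 pair. P19 cells also held family miRNAs with at most 2 reads per C2C12 hairpin library: miR-344h-3p (7.84 and 2.70 RPM), miR-344e-3p (4.55 and 3.14 RPM) and miR-344f-3p (3.92 and 1.12 RPM). miR-344f-3p was beyond the fold limit at -1.13, but its interval (-2.92 to 0.18) includes 0, and the call was lost with a prior count of 2 (-0.62) and in the exact binomial test on estimated reads (Benjamini-Hochberg adjusted p = 0.122). miR-344c-3p was at 26.5 and 30.5 RPM and miR-344b-3p at 31.2 and 15.3 RPM in P19 shNC and shPerk cells.

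A ratio of 2 miRNAs within 1 library does not depend on the scaling. There were 2.97 miR-344d-3p reads per miR-344-3p read (95% interval 2.59 to 3.41) in shNC cells at day 0 and 8.16 (7.36 to 9.07) in shPerk cells. At day 3 the ratio was 2.07 (1.91 to 2.25) in shNC and 8.03 (7.27 to 8.89) in shPerk cells. The shPerk ratios of C2C12 were thus close to each other and above those of shNC cells on both days, by 2.75-fold at day 0 (log2 1.46, 1.21 to 1.70) and 3.88-fold at day 3 (log2 1.95, 1.77 to 2.14). Between the days the ratio changed by -0.52 on the log2 scale in shNC cells (-0.75 to -0.29) and by -0.02 in shPerk cells (-0.23 to 0.18). The vector library had the highest ratio, 13.5 (10.9 to 16.8), and the ATF4 library had 3.79, with reads estimated from the RPM values. In P19 cells miR-344-3p outnumbered miR-344d-3p, with a ratio of 0.165 in shNC and 0.0549 in shPerk cells. There the log2 change with shPerk was -1.58 (-1.77 to -1.40), opposite in sign to both C2C12 days.

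**Figure D5:**
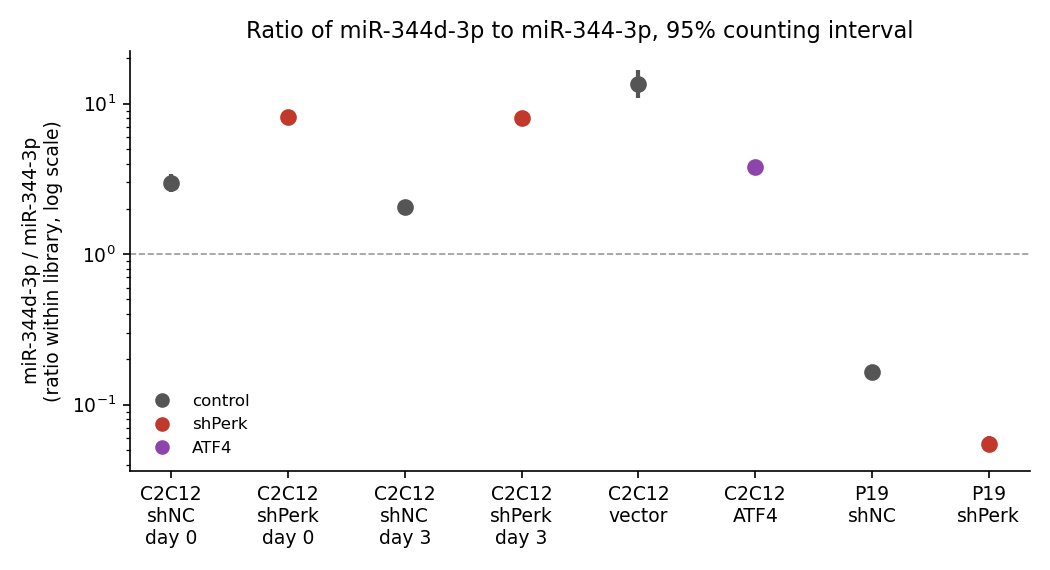
Ratio of miR-344d-3p to miR-344-3p within each of the 8 libraries on a log axis, with 95% counting intervals. Grey points are control libraries, red points shPerk libraries and the purple point the ATF4 library, and the dashed line marks equal levels. Both C2C12 shPerk libraries lie near 8, both P19 libraries lie below 1, and the vector library has the highest ratio.

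The arms of the miR-344d hairpins did not keep a fixed ratio either. The number of miR-344d-3p reads per miR-344d-3-5p read was 59.4 in shNC and 65.3 in shPerk cells at day 0, with intervals that overlap (35.2 to 109 and 49.5 to 87.9). At day 3 it was 158 (88.0 to 317) in shNC and 32.9 (27.1 to 40.2) in shPerk cells. The ATF4 library had 92.5, and the P19 libraries had 28.9 in shNC and 20.5 in shPerk cells. Since 3 hairpins give miR-344d-3p and only Mir344d-3 gives miR-344d-3-5p, a change of arm and a change between the hairpins cannot be told apart.

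As a family, the 19 names summed to 109 CPM in shNC and 443 CPM in shPerk cells at day 0, and to 229 and 442 CPM at day 3. The sum was 133 RPM in the vector library, 734 RPM in the ATF4 library, 1136 RPM in P19 shNC and 1384 RPM in P19 shPerk cells. miR-344d-3p made up 67.2% and 85.5% of the family in shNC and shPerk cells at day 0, 63.1% and 85.1% at day 3, and 13.2% and 4.99% in P19 shNC and shPerk cells. The other members were few. Beside the 5 miRNAs with at least 10 reads in a hairpin library, 6 had at most 2 reads per library and 8 had 0 reads in all 4 libraries. A count of 0 allows up to 0.265, 0.341, 0.250 and 0.318 CPM in the shNC and shPerk libraries at day 0 and the shNC and shPerk libraries at day 3. The strand opposite to miR-344-3p, miR-344-5p, was among them, with 2 reads in shPerk cells at day 0 and 0 reads in the other 3.

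The seed of miR-344d-3p came from different miRNAs in the 2 cell lines. miR-410-3p, a miRNA of chromosome 12 with the same seed, had 1 read in the C2C12 shPerk library at day 3 and 0 reads in the other 3 hairpin libraries. P19 cells had 2200.1 RPM of it with shNC and 435 RPM with shPerk (log2 fold change -1.73). All miRNAs with the seed AUAUAAC together reached 2354 RPM in P19 shNC cells, of which the miR-344 family gave 6.54%, and 507 RPM in P19 shPerk cells, of which it gave 14.2%. In each of the 4 C2C12 hairpin libraries the family gave at least 99.97% of the reads with this seed, and in the ATF4 pair miR-410-3p was not listed. The seed GAUCUAG of miR-344-3p is carried by no mature miRNA of the table outside the family.

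The likeness of the 3 miRNAs to other miRNAs was measured as the mean absolute difference over 5 log2 changes, those of the 3 other hairpin libraries against shNC day 0, of ATF4 against vector and of P19 shPerk against shNC. The ATF4 change is the one that chose the miRNAs. Of 418 miRNAs outside the family with at least 10 CPM or RPM in a library and values in all tables, miR-708-5p (0.62), miR-34c-3p (0.80) and miR-467d-5p (0.84) were the nearest to miR-344-3p. miR-497a-5p (0.36), miR-146a-5p (0.50) and miR-195a-3p (0.50) were the nearest to miR-344d-3p. For miR-344d-3-5p they were miR-146a-5p (0.28), miR-195a-3p (0.58) and miR-195a-5p (0.73), while its distance to miR-344d-3p of its own family was 0.62. Values listed at 0, among them the vector values of miR-344d-3-5p and miR-708-5p, were set to 1 RPM here. The median distance to all candidates was 1.91 to 1.94, and miR-146a-5p and miR-195a-3p were among the nearest of both miR-344d miRNAs.

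Muscle and neuronal miRNAs were counted for context. The muscle list holds the 4 muscle markers with miR-208b-3p and miR-499-5p, and the neuronal list holds miR-124-3p, miR-9-5p, miR-9-3p, miR-137-3p, miR-153-3p, miR-128-3p and miR-129-5p. The paper, however, counts miR-128 among the miRNAs associated with myogenesis. In the neuronal counts below, miR-128-3p is one of those called lower with shPerk on both days. It is also one of those called higher at day 3 of shNC cells, where its log2 fold change of 1.14 is the median. Of 6 muscle miRNAs, all 6 were called higher at day 3 of shNC cells (median log2 fold change 3.56), against 15.0% of all miRNAs tested, and 5 of 5 tested in shPerk cells (2.93), against 16.8%. Among the 6 in shNC cells, miR-208b-3p (0 and 12 reads) passed the filter only through the day 3 library, in which it was high. With shPerk, 3 of 5 tested were called lower at day 0 (-2.17), against 18.1% of all, and 4 of 6 at day 3 (-2.03), against 21.9%, none higher. In the ATF4 pair 3 of 5 were higher (1.21), against 14.0% of all, and in P19 cells 3 of 4 were higher (1.41), against 17.1%, at a summed marker level of 34.5 and 96.9 RPM. Among these 3 in P19 cells, miR-133b-3p (1.14 and 1.79 RPM) had an interval of -0.31 to 2.81, which includes 0. Among the 3 in the ATF4 pair, miR-499-5p (0 and 3.62 RPM) passed the filter only through the ATF4 library. Its call rests on the vector value set to 1 RPM. Of 7 neuronal miRNAs, 5 were tested in C2C12 with shPerk: 2 were called higher and 2 lower at day 0 (median 0.51), against 16.4% and 18.1% of all, and 3 higher and 2 lower at day 3 (1.82), against 20.0% and 21.9%. At day 3 of differentiation 3 of 5 were higher and 1 lower in shNC cells (1.14), against 15.0% and 11.0% of all, and 2 of 5 higher and 0 lower in shPerk cells (0.83), against 16.8% and 12.6%. In the ATF4 pair 2 of 4 were higher (0.81), against 14.0%, and in P19 cells 1 of 6 was higher and 1 lower (-0.34), against 17.1% and 17.5%. The higher one in P19 cells was miR-153-3p (0 and 5.38 RPM). It passed the filter only through the shPerk library, and its call rests on the shNC value set to 1 RPM.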

How the data were processed

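Small RNA was measured in 8 libraries, 1 per condition. The authors deposited the unnormalized count of reads per mature miRNA for the C2C12 hairpin libraries, in 3 tables that repeat 2 libraries with identical values. RPM values relative to all miRNA reads, those under 1 listed at 0, were deposited for the ATF4 and P19 pairs. According to the methods, linkers were ligated, the cDNA was amplified and gel-selected, and reads were aligned with bowtie (mm10 is named). The version of bowtie is not given in the sources used here, nor is the handling of reads with several matches. Columns with the authors' own fold changes, p-values and q-values were not used.

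The 3 miRNAs and all lists were chosen with earlier results of these data known. Named miRNAs are the 3, every family miRNA with at least 10 reads or 1 RPM in a library, and the 3 nearest in pattern to each. miR-410-3p, other markers of cell types and miR-344-5p were named after their values were seen. miRNAs with at least 1 CPM or RPM in 1 of the 2 libraries were tested. TMM factors were taken over all miRNAs of the table, with a prior count of 0.125 for log2 fold changes. In RPM tables TMM was computed on the RPM values, 0 was set to 1 RPM and a call needs only the fold limit, although counts had been assumed when the tests were laid out. Reads behind RPM values were estimated from the step of the low values: 94.8% to 97.9% of the values under 20 RPM were whole multiples within 0.006 RPM, and the estimated totals were 4.46e+06 to 1.22e+07 reads. Ratios and these intervals use such reads, an addition made after the data were seen. Since no group has a second library, no p-value refers to a condition. Positions and sequences come from RefSeq and GENCODE on GRCm38.p6, the assembly that mm10 stands for. The calls from counts and RPM, the Clopper-Pearson and Wald intervals of fold changes and the step of the RPM values were tested on simulated data. The ratios within libraries, the comparison of controls, the likeness and the alternative settings were not. TMM came from edgeR 4.0.16 in R 4.3.3, and median-of-ratios factors from DESeq2 1.42.0. Tests and intervals were computed with scipy 1.17.1 in Python 3.11.15. Other scalings, filters, prior counts, floors and the exact test of edgeR with the biological coefficient of variation assumed to be 0.2 or 0.4 were tried as alternatives.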

Additional observations from a re-analysis of the deposited data

Results flagged for a closer look

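The effect of Perk knockdown in C2C12 cells differed between day 3 and day 0 by more than counting error for each of the 3 miRNAs, in a Wald test on the reads of 4 libraries: by -1.41 for miR-344-3p, by -0.91 for miR-344d-3p and by 1.49 for miR-344d-3-5p (log2, day 3 minus day 0). No replicate library stands behind these differences. In P19 cells the sign was opposite to that of both C2C12 days for miR-344d-3p, with a log2 fold change of -0.51. The value of miR-344d-3-5p was flagged as well, but it was -0.01. Its interval from estimated reads (-0.98 to 0.87) includes 0, so its sign is not settled. The difference between the cell lines was not tested for these fold changes.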

How the results depend on the processing

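Of the alternative values for the 3 miRNAs, 145 kept direction and side of the limit, 13 lost a call, 1 gained one and 2 changed sign. The sign changed for miR-344d-3p between the days in shPerk cells (-0.0070 with total-count scaling) and for miR-344d-3-5p in P19 cells (0.031 with median-of-ratios scaling). In the rest of the family it changed for miR-344c-3p between the days in shPerk cells (-0.40 with total-count, -0.049 with median-of-ratios and -0.24 with upper-quartile scaling) and for miR-344e-3p in P19 cells (-0.52 and -0.067 with total-count and upper-quartile scaling). The cause was not tested. When edgeR's exact test assumed a biological coefficient of variation of 0.4, miR-344d-3p kept its call at day 0. miR-344d-3-5p kept its call at day 3, where it had passed the filter only through the shPerk library. The other calls of the 3 miRNAs in the hairpin libraries were lost. The calls over all miRNAs then fell from 208 to 56 for shPerk at day 0, from 241 to 46 at day 3, from 154 to 7 between the days in shNC cells and from 168 to 1 in shPerk cells. At 0.2 the counts between the days were 96 and 104. A filter of 10 CPM or RPM, which tests fewer miRNAs, left 130 calls at day 0, 91 and 105 between the days in shNC and shPerk cells, and 83 in the ATF4 pair, where a prior count of 2 left 86. With total-count scaling all miRNAs tested had a median log2 fold change of -0.19 and -0.32 for shPerk at day 0 and day 3, -0.30 and -0.40 between the days in shNC and shPerk cells, and -0.63 in P19 cells. The split of higher and lower calls went from 99 and 109 to 73 and 129 (71 and 140 with upper-quartile scaling) at day 0, from 115 and 126 to 83 and 160 (87 and 153) at day 3, from 89 and 65 to 48 and 129 (71 and 84) in shNC cells, from 96 and 72 to 48 and 150 (68 and 117) in shPerk cells and from 119 and 122 to 44 and 245 in P19 cells. Upper-quartile scaling turned 85 and 50 into 51 and 116 in the ATF4 pair. No paired analysis was possible because each condition has 1 library, and leaving out a library was not possible for the same reason. Depth limits miR-344d-3-5p and miR-344c-3p, which rest on 11 to 51 reads in most hairpin libraries.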
